A study of Rattus norvegicus with 40 samples.

Results

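Transcripts of 8 genes of the Toll-like receptor and NF-kappaB pathway were measured in microglia of adult rats, the immune cells that live within brain and spinal cord. The genes were chosen by their membership of the pathway, with earlier results of these data known, and taken by Ensembl identifier. Of these members 8 of 8 were among the 32883 genes counted. They were the receptors Tlr2 (ENSRNOG00000009822) and Tlr4 (ENSRNOG00000010522), the co-receptor Cd14 (ENSRNOG00000017819) and the adaptor Myd88 (ENSRNOG00000013634). The others were the NF-kappaB subunits Nfkb1 (ENSRNOG00000023258) and Rela (ENSRNOG00000030888), the inhibitor Nfkbia (ENSRNOG00000007390) and the adhesion molecule Icam1 (ENSRNOG00000020679), a target gene. All 8 passed the filter on low counts in every fit, so no member was left out.

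Sprague Dawley dams breathed intermittent normoxia (21% oxygen throughout) or intermittent hypoxia (cycles between 10.5% and 21%) from gestational day 10 to day 21 (11 days of exposure, 15 cycles in each of 8 hours per day). Birth and rearing took place in room air. At 8 weeks, CD11b-positive cells were isolated with magnetic beads from the medulla and from cervical cord segments C3 to C6 of male and female offspring. The 8 groups of sex, exposure and region held 5 libraries each, 1 per animal. By the series design both regions come from the same animals, and 1 offspring of each sex was taken per litter from 5 paired litters. No genotype differed between groups, and the only agent was the oxygen given to the dam.

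Toll-like receptors such as Tlr2 and Tlr4 recognise microbial molecules and products of damaged cells at the cell surface. Cd14 hands lipopolysaccharide to Tlr4, and Myd88 couples Tlr2 and Tlr4 to the kinases that free NF-kappaB from its inhibitors. Nfkb1 encodes p105, the precursor of the p50 subunit, and Rela encodes p65. Nfkbia encodes IkappaBalpha, which holds p50 and p65 in the cytoplasm and is itself transcribed by NF-kappaB, a negative feedback. Icam1, a ligand for leukocyte integrins, is a classical NF-kappaB target. In microglia this pathway is known for driving the first inflammatory response to injury or infection.

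The promoters of the 3 members that differed between regions are shown because these members carry the main result. Each is the RefSeq sequence of 250 bases before to 50 bases after an annotated start, on build GRCr8, whereas the counts come from rn6. Nfkbia is at chr6:78597023-78597322, minus strand, Icam1 at chr8:27829595-27829894, plus strand and Tlr2 at chr2:171504508-171504807, minus strand. Capitals mark exact matches on either strand to a kappaB consensus, a pattern of sites that NF-kappaB dimers bind. It reads GGGRNNYYCC, with R a purine, Y a pyrimidine and N any base.
Nfkbia: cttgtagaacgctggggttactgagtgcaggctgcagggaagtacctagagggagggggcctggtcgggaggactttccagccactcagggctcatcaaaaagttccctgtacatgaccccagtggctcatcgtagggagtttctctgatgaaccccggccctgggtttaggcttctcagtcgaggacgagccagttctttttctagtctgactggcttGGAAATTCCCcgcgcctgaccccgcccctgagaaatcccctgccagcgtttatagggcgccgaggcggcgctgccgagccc
Icam1: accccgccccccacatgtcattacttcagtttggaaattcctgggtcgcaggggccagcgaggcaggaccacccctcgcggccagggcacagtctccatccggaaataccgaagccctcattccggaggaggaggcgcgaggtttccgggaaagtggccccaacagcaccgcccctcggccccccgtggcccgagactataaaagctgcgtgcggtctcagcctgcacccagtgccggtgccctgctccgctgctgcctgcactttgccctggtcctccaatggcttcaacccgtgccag
Tlr2: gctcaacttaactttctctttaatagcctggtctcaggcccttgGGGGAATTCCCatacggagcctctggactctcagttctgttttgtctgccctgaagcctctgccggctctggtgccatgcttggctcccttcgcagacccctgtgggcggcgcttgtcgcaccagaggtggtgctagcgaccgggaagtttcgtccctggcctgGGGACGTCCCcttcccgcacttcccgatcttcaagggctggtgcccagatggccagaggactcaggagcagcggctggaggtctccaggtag

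The match of Nfkbia began at position -31 from the start, and those of Tlr2 at -206, -205 and -42, the first 2 of them overlapping. Nfkb1 held 1 match, at position 3, and the windows of Rela, Icam1, Tlr4, Cd14 and Myd88 held none. Of 33469 promoters of the same length, 7.51% held a match, and 3 of the 8 members did. These are exact matches of letters in 300 bases. Near matches, such as tggaaattcc in the Icam1 window, were not counted, and sites outside the window were not searched.

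Library totals ran from 6061346 to 24039411 reads. The lowest total was that of female hypoxia medulla replicate 3, with counts in 13379 genes, against 15094 to 18339 genes in the other libraries. Lists of cell type markers could not be matched to the identifiers, so the purity of the isolations and the labelled cell type were not analysed here. Counts from bulk RNA also cannot tell fewer cells of a type apart from less RNA per cell. Members were measured well above the floor of detection, from 155 reads in the sparsest library for Cd14 to 16123 for Tlr2. Levels are given as CPM, read counts relative to a library size scaled by TMM factors, and since they are not per length they are compared between groups of a gene and never between genes.

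**Figure D1:**
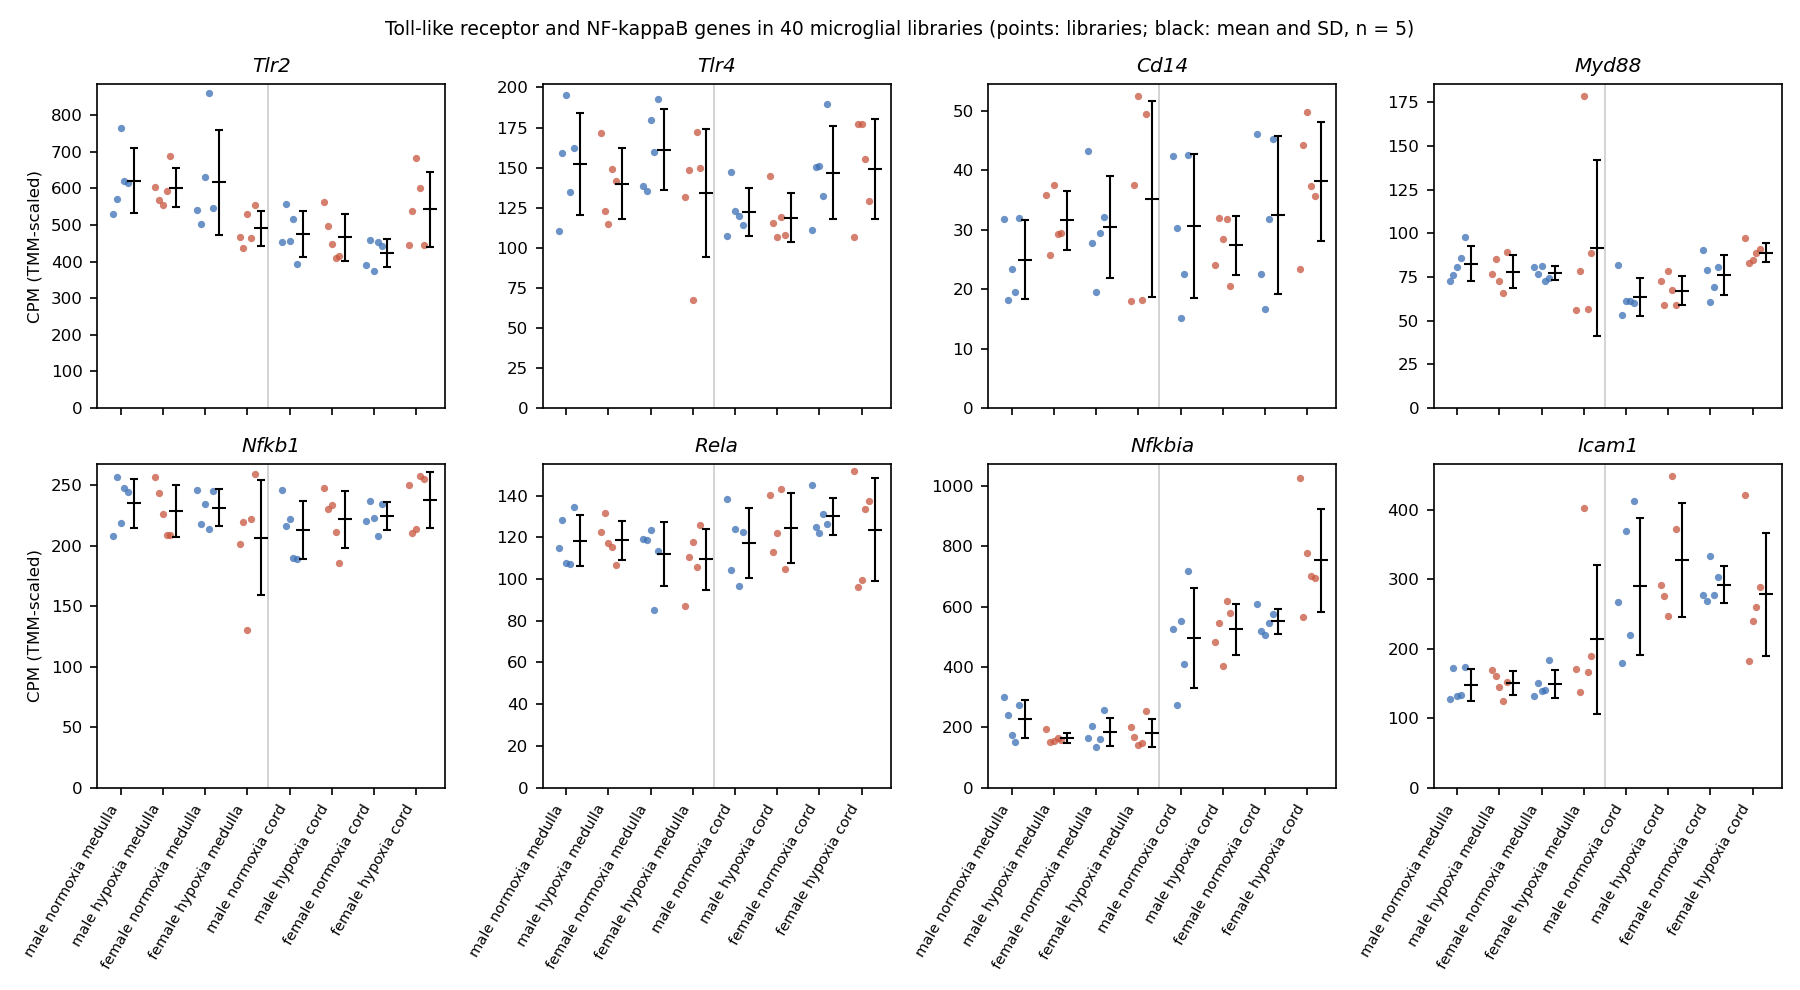
Level of each gene in CPM (linear axis from 0) in every library, by group; blue points are normoxia, red points hypoxia, and black marks give the mean and SD of 5 libraries. Nfkbia and Icam1 lay higher in the cord groups, right of the grey line. In Icam1 (402 CPM) and Myd88 (178 CPM) 1 female hypoxia medulla library lies apart. The same library is the lowest in Nfkb1 (131 CPM) and Tlr4 (67.2 CPM).

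The 2 genes that differed most between regions were Nfkbia, the feedback inhibitor, and Icam1, the adhesion target. Nfkbia was higher in the cord than in the medulla in each of the 4 combinations of sex and exposure, 2.21-fold to 4.15-fold, and Icam1 1.96-fold to 2.19-fold higher in 3 of them. Tlr2 was lower in the cord of normoxia females, 1.44-fold. Nfkb1, Rela, Tlr4, Cd14 and Myd88 were called in none of the 4 comparisons.

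In the medulla, Nfkbia stood at 301, 240.1, 174, 151 and 272 CPM in male normoxia libraries and at 196, 152, 153, 163 and 159 CPM in male hypoxia libraries. Female medulla libraries held 163, 204, 136, 162 and 256 CPM under normoxia and 201, 167, 142, 148 and 253 CPM under hypoxia. Cord libraries of males held 525, 275, 553, 411 and 717 CPM under normoxia and 482, 545, 403, 618 and 579 CPM under hypoxia. Across the regions, 1 cord library of 20, male normoxia replicate 2, lay below the highest medulla library. Cord libraries of females held 608, 518, 506, 546 and 574 CPM under normoxia and 1027, 567, 779, 702 and 695 CPM under hypoxia. Regions did not overlap in male hypoxia, female normoxia or female hypoxia animals, and overlapped in male normoxia animals through that 1 cord library. The share of all genes without overlap was not computed, for this gene or for those below. Nor was the share of genes that differed in the same direction within animals.

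The log2 fold change of Nfkbia, cord minus medulla, was 1.14 (SE 0.21, adjusted p = 0.00281) in male normoxia and 1.68 (SE 0.21, adjusted p = 1.33e-05) in male hypoxia offspring. It was 1.58 (SE 0.21, adjusted p = 4.58e-05) in female normoxia and 2.05 (SE 0.21, adjusted p = 4.76e-08) in female hypoxia offspring. Within animals, the cord library was higher in 20 of 20, by 0.20 to 2.45 on the log2 scale with a median of 1.71. The smallest difference belonged to male normoxia animal 2. In every alternative fit run for these 4 comparisons, with each animal as a block or single libraries left out, Nfkbia was called, with log2 fold changes from 0.96 to 2.20.

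Icam1 held 128, 172, 132, 133 and 174 CPM in male normoxia medulla libraries and 268, 180.2, 369, 219.5 and 413 CPM in the matching cord libraries. Under hypoxia the male medulla libraries held 169, 161, 144, 124 and 153 CPM and the male cord libraries 292, 276, 248, 449 and 372 CPM. Normoxia females had 131, 151, 139, 141 and 183 CPM in the medulla and 277, 269, 333, 277 and 304 CPM in the cord. Within each of these 3 sets every cord library exceeded every medulla library of its own set. Hypoxia females had 171, 138, 402, 167 and 189.8 CPM in the medulla and 421, 182, 240.1, 259.6 and 289 CPM in the cord, and the regions overlapped.

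For Icam1 the log2 fold change between regions was 1.00 (SE 0.23, adjusted p = 0.00943) in male normoxia, 1.13 (SE 0.23, adjusted p = 0.00238) in male hypoxia and 0.97 (SE 0.23, adjusted p = 0.0107) in female normoxia offspring. In hypoxia females it was 0.39 (SE 0.23, adjusted p = 0.212) and was not called. The medulla value of 402 CPM came from female hypoxia medulla replicate 3, the shallowest library of the series. Without that library the log2 fold change in hypoxia females was 0.75 (adjusted p = 0.00887), and with limma voom and quality weights 0.78 (adjusted p = 0.0181). Across animals, Icam1 was higher in the cord in 19 of 20, the exception being the female hypoxia animal with that library. Without male normoxia cord replicate 5, the male normoxia call was lost (log2 fold change 0.83, adjusted p = 0.0534).

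Tlr2, which forms heterodimers for lipoproteins, had 541, 503, 632, 859 and 545 CPM in female normoxia medulla libraries and 392, 459, 374, 453 and 442 CPM in the cord of the same animals, without overlap. The log2 fold change was -0.53 (SE 0.13, adjusted p = 0.0147). Leaving out female normoxia medulla replicate 4, the library at 859 CPM, gave -0.39 (adjusted p = 0.057), and leaving out cord replicate 3 gave -0.48 (adjusted p = 0.0552). In males the cord libraries held 455, 558, 456, 517 and 393 CPM under normoxia and 563, 497, 449, 410.3 and 415 CPM under hypoxia. Male medulla libraries held 529.7, 572, 766, 619.9 and 615 CPM under normoxia and 604, 568, 556, 593 and 689 CPM under hypoxia. Both male comparisons gave -0.36 (SE 0.13), with adjusted p of 0.0846 under normoxia and 0.0825 under hypoxia, and were not called. Without male hypoxia cord replicate 1 the hypoxia comparison was called (adjusted p = 0.0454), and with limma voom the normoxia one was (adjusted p = 0.0169). The cord library was the lower of the 2 in 5 of 5 animals in each of these 3 sets.

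**Figure D2:**
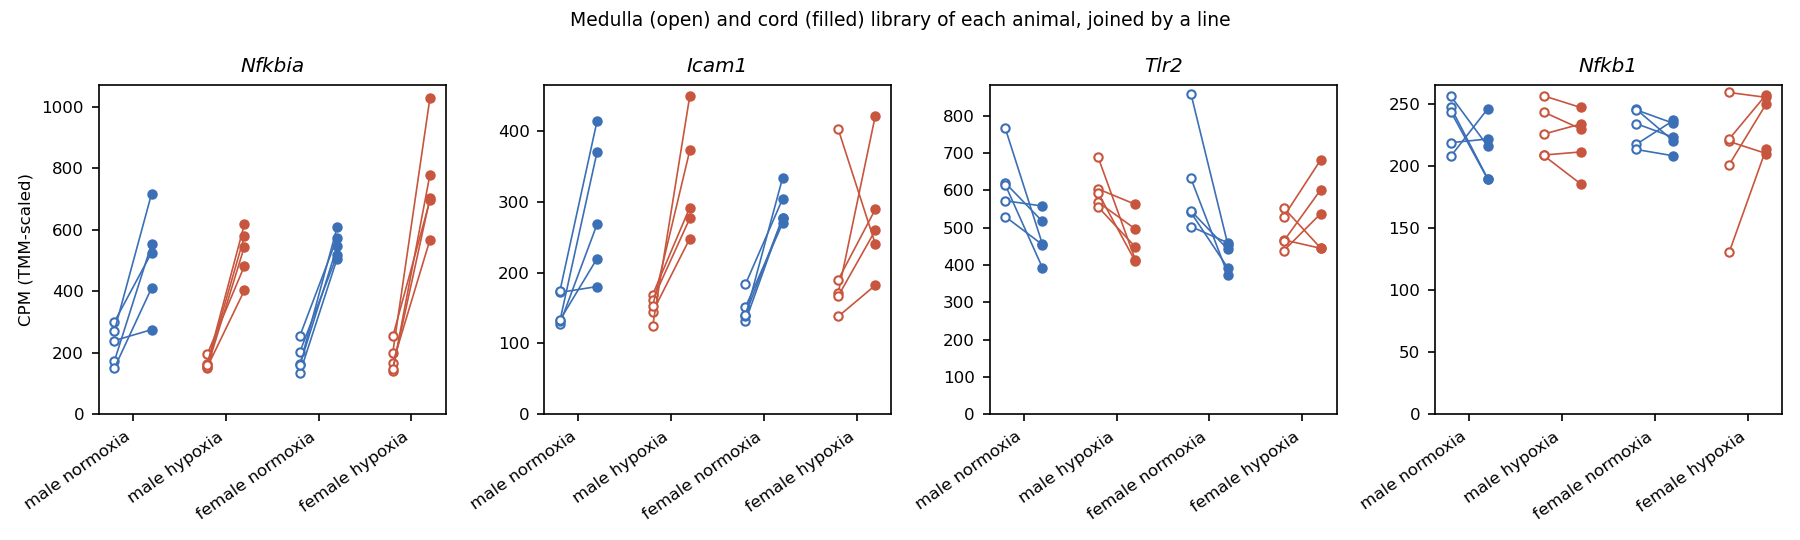
CPM (linear axis from 0) of Nfkbia, Icam1, Tlr2 and Nfkb1 in the medulla library (open) and the cord library (filled) of each of 20 animals, joined by a line; blue is normoxia and red hypoxia. The cord point is the higher one in 20 of 20 animals for Nfkbia, in 19 for Icam1, in 3 for Tlr2 (all female hypoxia) and in 8 for Nfkb1.

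As shares of all genes tested, 5.87% were called between regions in female normoxia, 26.2% in female hypoxia, 6.55% in male normoxia and 7.76% in male hypoxia animals. Of the 8 members 3, 1, 2 and 2 were called in these comparisons, and without female hypoxia medulla replicate 3 the 1 of hypoxia females became 3. The share of all genes called in that refit is not given here. In refits of hypoxia females with single libraries left out, 2797 to 4853 genes were called. With only the compared libraries the number of genes called in hypoxia females was 132, in place of 3886, and these shares are read no further. The median log2 fold change over the members was 0.05 in female normoxia, 0.17 in female hypoxia, -0.06 in male normoxia and -0.12 in male hypoxia animals. Over all genes the medians were -0.02, -0.03, -0.03 and -0.01. Uncalled differences lay between -0.30 and 0.31 in Tlr4, Cd14, Nfkb1 and Rela and between -0.36 and -0.01 in Myd88. In hypoxia females Nfkb1 was called without medulla replicate 5 (0.30, adjusted p = 0.0449) and Myd88 without medulla replicate 3 (0.35, adjusted p = 0.0414). In normoxia males limma voom called Myd88 lower in the cord (-0.36, adjusted p = 0.0266). For Nfkb1 the interval of 2 SE on either side ran from -0.35 to 0.10 in male normoxia and from -0.02 to 0.43 in female hypoxia animals, the outermost of the 4 comparisons. In the latter the difference of 0.21 became 0.08 without medulla replicate 3.

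None of the 8 members was called for exposure of the dam, in either sex or region. In the female cord, where 32.8% of 13593 genes were called, edgeR called 0 of 8 members, as did DESeq2 and limma voom. Before adjustment 2 of them, Nfkbia and Tlr2, had p under 0.05, as did 43.3% of all genes. In the male cord, the female medulla and the male medulla 0% of genes and 0 of 8 members were called, and DESeq2 and limma voom also called 0 members. Unadjusted p values under 0.05 were held by 0, 2 and 0 members there, and by 6.19%, 15.4% and 0.862% of all genes. Among the members the median size of the log2 fold change in the female cord was 0.15, against 0.36 over all genes tested. The genes were not matched to the members for abundance, so a smaller response of the pathway is not read from this. Depth also differed by exposure, at 10500000 ± 1920000 reads under normoxia and 17800000 ± 2820000 under hypoxia in the female cord (SD, n = 5). In the male medulla it was 20300000 ± 2500000 under normoxia and 12300000 ± 1260000 under hypoxia, and the part of depth in these results was not tested.

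Nfkbia averaged 551 ± 41.4 CPM in normoxia and 754 ± 171 CPM in hypoxia female cord libraries (SD, n = 5). Only replicate 2 of the hypoxia libraries, at 567 CPM, lay within the normoxia range of 506 to 608 CPM. The log2 fold change was 0.41 (SE 0.19, adjusted p = 0.0923). It was called when the 10 libraries compared set the spread alone (adjusted p = 0.0416), and its adjusted p ran from 0.0416 to 0.255 over all alternatives.

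Tlr2 averaged 424 ± 38.7 CPM in normoxia and 542 ± 103 CPM in hypoxia female cord libraries, with hypoxia values of 445, 538, 682, 602 and 445 CPM. The log2 fold change was 0.32 (SE 0.13, adjusted p = 0.0623). Leaving out either library at 445 CPM made it a call, with adjusted p of 0.029 without replicate 1 and 0.0305 without replicate 5. The groups met between 445 and 459 CPM. These values depend on the scaling: from group means of CPM the log2 ratio in the female cord was 0.36 with TMM factors and 0.16 without for Tlr2, and 0.45 and 0.28 for Nfkbia. In the same comparison Nfkb1 turned from 0.08 to -0.10 and Tlr4 from 0.02 to -0.17 without the factors.

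In the cord the exposure difference of Nfkb1 was 0.04 (SE 0.09) in females and 0.07 (SE 0.09) in males on the log2 scale, with 2-SE intervals of -0.14 to 0.23 and -0.11 to 0.26. Rela gave -0.11 (SE 0.12) and 0.10 (SE 0.13). Cd14, the member with the fewest reads, had SEs of 0.28 to 0.29 in the 4 exposure comparisons, and its intervals reached from -0.71 to 0.95. Myd88 gave 0.19 (SE 0.12) in the female and 0.09 (SE 0.12) in the male cord, and Tlr4 -0.02 and -0.03 (SE 0.15 for both).

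**Figure D3:**
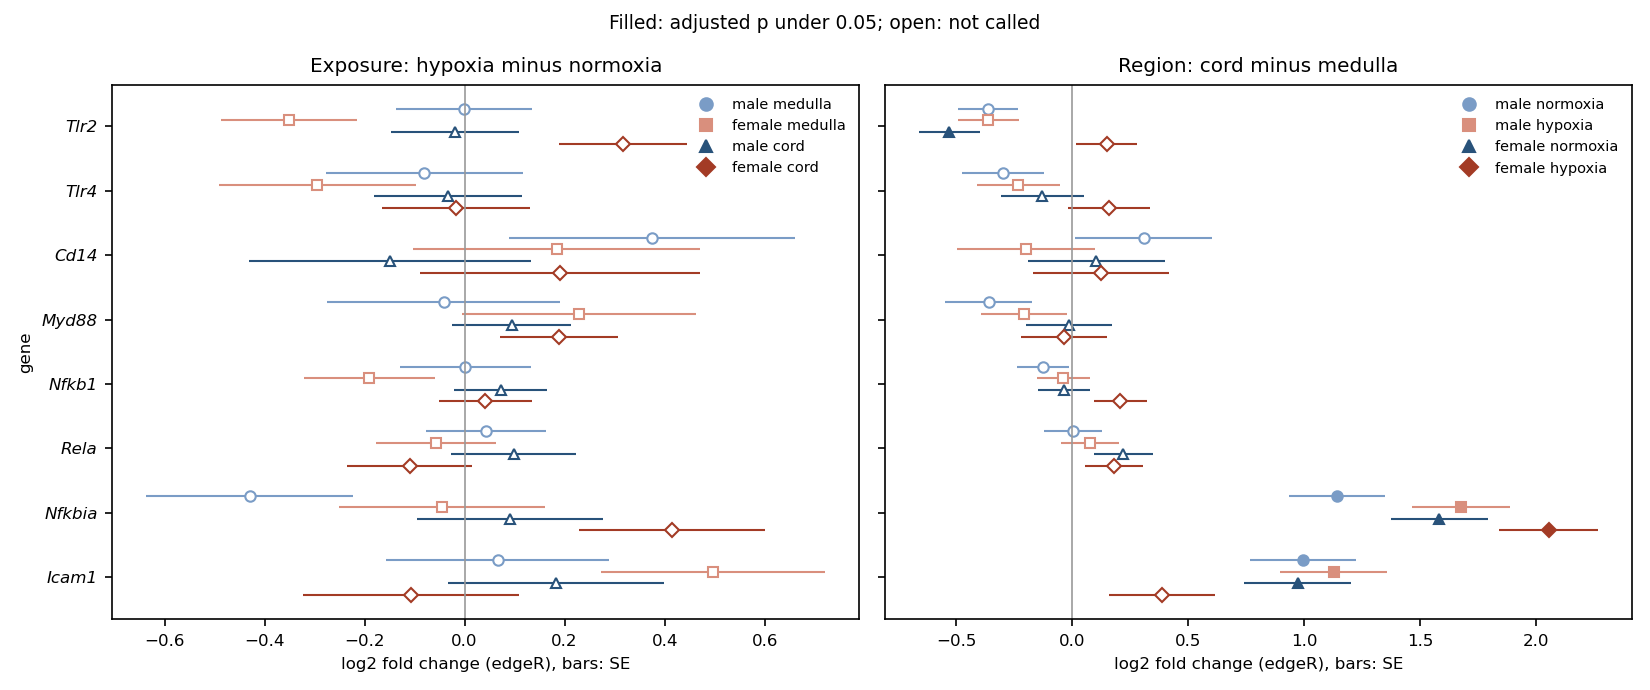
Log2 fold changes with SE bars of the 8 genes for exposure (left, 4 combinations of sex and region) and region (right, 4 combinations of sex and exposure); filled symbols have an adjusted p under 0.05. No symbol is filled for exposure, while all 4 symbols of Nfkbia, 3 of Icam1 and 1 of Tlr2 are filled for region.

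In female medulla, Tlr2 held 468, 438, 529, 464 and 553 CPM after hypoxia, against the normoxia values of 503 to 859 CPM given above, so the groups overlapped. Its exposure difference there was -0.35 (SE 0.14, adjusted p = 0.261), opposite in sign to that in the female cord, and it was -0.17 (adjusted p = 0.516) without normoxia replicate 4, the library at 859 CPM. The difference between these responses was tested as the interaction of region and exposure. Tlr2 was the 1 member of 8 called in females, at 0.68 (SE 0.19, adjusted p = 0.00992), where 20.8% of all genes were called. In males the same interaction of Tlr2 was 0.00 (SE 0.19). There edgeR, DESeq2 and limma voom called 0 of 8 members, edgeR called 0% of genes, and 0 members and 1.88% of genes had an unadjusted p under 0.05. Whether the interaction differed between the sexes was not tested. With single libraries left out the female interaction was 0.54 to 0.74, called each time (0.69 without medulla replicate 3 of the hypoxia group), and it was 0.64 (adjusted p = 0.0191) with each animal as a block. With only the 20 female libraries setting the spread it was 0.62 (adjusted p = 0.068), and from group means of CPM it was 0.68 with TMM factors and 0.52 without. Tlr2 was higher in the cord than in the medulla in 3 of 5 hypoxia females, against 0 of 5 animals in each of the other 3 sets.

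Icam1 averaged 149 ± 20.4 CPM in normoxia and 214 ± 107 CPM in hypoxia female medulla libraries. Its log2 fold change of 0.50 (SE 0.22, adjusted p = 0.302) became 0.14 (adjusted p = 0.775) without replicate 3. That library also held the highest Myd88 and Cd14 values of the series, 178 and 52.5 CPM, and the lowest values of Nfkb1 and Tlr4, 131 and 67.2 CPM. Nfkbia in the male medulla averaged 228 ± 63.8 CPM under normoxia and 165 ± 17.8 CPM under hypoxia, a log2 fold change of -0.43 (SE 0.21, adjusted p = 1 in edgeR's test).

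Whether the response to exposure differed between the sexes was also tested. In the cord 0 of 8 members were called where 23.2% of all genes were, and in the medulla 0 of 8 where 0% were. Before adjustment 0 members reached p under 0.05 in either test, against 37.6% of all genes in the cord and 6.21% in the medulla, and neither DESeq2 nor limma voom called any. The largest differences of responses in the cord were those of Cd14 at 0.34 (SE 0.40) and Tlr2 at 0.34 (SE 0.18, adjusted p = 0.182, interval of 2 SE from -0.03 to 0.70), both more positive in females.

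Between the sexes themselves, Myd88 was higher in females in the hypoxia cord, the 1 member called there, where 19.6% of all genes were. Female libraries held 97.2, 83.1, 84.9, 88.7 and 91.3 CPM and male libraries 72.6, 59.1, 78.2, 67.5 and 58.9 CPM, without overlap. The log2 fold change was 0.36 (SE 0.12, adjusted p = 0.037). From group means the log2 ratio was 0.40 with TMM factors and 0.25 without. That call was lost in 9 of 10 fits that left out a library (adjusted p = 0.0529 to 0.111), all but the one without male hypoxia cord replicate 3, while the log2 fold change lay between 0.29 and 0.40 in the 10 fits. Nfkbia had the larger difference there, 0.48 (SE 0.19, adjusted p = 0.0726), and was not called, and 2 members and 34.4% of genes had an unadjusted p under 0.05. Under normoxia the female cord held 90.3, 79.1, 60.7, 69.1 and 81.0 CPM and the male cord 81.9, 53.4, 61.3, 61.1 and 60.02 CPM, an overlapping difference of 0.27 (SE 0.12, adjusted p = 0.173). No member was called there (6.56% of genes were, and 1 member and 23.5% of genes had an unadjusted p under 0.05), nor in the medulla under normoxia (0.0707% of genes) or hypoxia (0.0777% of genes). In the hypoxia medulla 2 members, Tlr2 and Icam1, and 14.3% of genes had an unadjusted p under 0.05, and under normoxia 0 members and 4.15% of genes had. The Icam1 difference there, 0.48, was 0.12 without medulla replicate 3 of the hypoxia females. DESeq2 and limma voom called 0 members in these 3 comparisons too.

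Ordered by mean, neighbouring groups overlapped in all 7 steps for each of the 8 genes. Neighbours in such an order have close means, and the share over all genes was not computed, so this is read no further. The Nfkbia step from male normoxia cord (496 CPM) to male normoxia medulla (228 CPM) was 1.63 times the larger SD. From the lowest to the highest group mean the span was 4.57-fold for Nfkbia, from 165 CPM in male hypoxia medulla to 754 CPM in female hypoxia cord. For Icam1 it was 2.22-fold, from 148 CPM in male normoxia medulla to 327 CPM in male hypoxia cord. Tlr2 spanned 1.46-fold, lowest in female normoxia cord (424 CPM) and highest in male normoxia medulla (620.4 CPM). Cd14 spanned 1.53-fold (24.97 to 38.1 CPM), Myd88 1.44-fold (63.5 to 91.6 CPM) and Tlr4 1.36-fold (119 to 161 CPM). Rela and Nfkb1 had the narrowest spans, 1.19-fold (109 to 130.0 CPM) and 1.15-fold (207 to 238 CPM). Without female hypoxia medulla replicate 3 the spans of Nfkb1 and Myd88 were 1.12-fold (213 to 238 CPM) and 1.40-fold (63.5 to 89.0 CPM).

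Animals within a group also differed, and deviations of single libraries from their group means were compared between members. In the 20 cord libraries 4 of 28 pairs of members passed a permutation test within groups after adjustment over the 28. How many pairs of other genes would pass was not computed, for this or the later counts of pairs. The counts are therefore not read as a trait of the pathway. Nfkbia and Icam1 deviated in the same direction (r = 0.87, rho = 0.78, permutation p = 0.00012 and 0.00184, adjusted 0.00336 and 0.0177), with r = 0.83 without the 2 libraries most extreme in Nfkbia. Tlr2 and Tlr4 did so too (r = 0.67, rho = 0.65, permutation p = 0.00452 and 0.00843, adjusted 0.0388 and 0.0472, r = 0.57 without 2 libraries). Rela and Myd88 were the third such pair (r = 0.60, rho = 0.67, permutation p = 0.00148 and 0.00087, adjusted 0.0207 and 0.0177, r = 0.59 without 2). Icam1 and Tlr2 went opposite ways (r = -0.68, rho = -0.74, permutation p = 0.00554 and 0.0019, adjusted 0.0388 and 0.0177, r = -0.55 without 2).

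In the medulla 0 of 28 pairs passed, and Nfkbia and Icam1 had r = 0.07 (rho = 0.25, permutation p = 0.81 and 0.304, adjusted 0.84 and 0.673, r = -0.01 without 2 libraries). Without female hypoxia medulla replicate 3 that r was 0.57 (rho = 0.55, permutation p = 0.0327 and 0.0384, adjusted 0.271 and 0.26, r = 0.45 without 2). Over all 40 libraries 0 of 28 pairs passed, with r = 0.49 for Nfkbia and Icam1 (rho = 0.54, permutation p = 0.00971 and 0.0024, adjusted 0.0932 and 0.0266, r = 0.36 without 2). Leaving that library out, 6 of 28 passed, led by Nfkbia with Icam1 (r = 0.74, rho = 0.68, permutation p = 3e-05 and 0.00013, adjusted 0.00084 and 0.00224, r = 0.64 without 2). Tests over both regions shuffled libraries without regard to animal. Their p values therefore treat the cord and medulla libraries of an animal as independent. The difference in r between the regions was not tested.

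**Figure D4:**
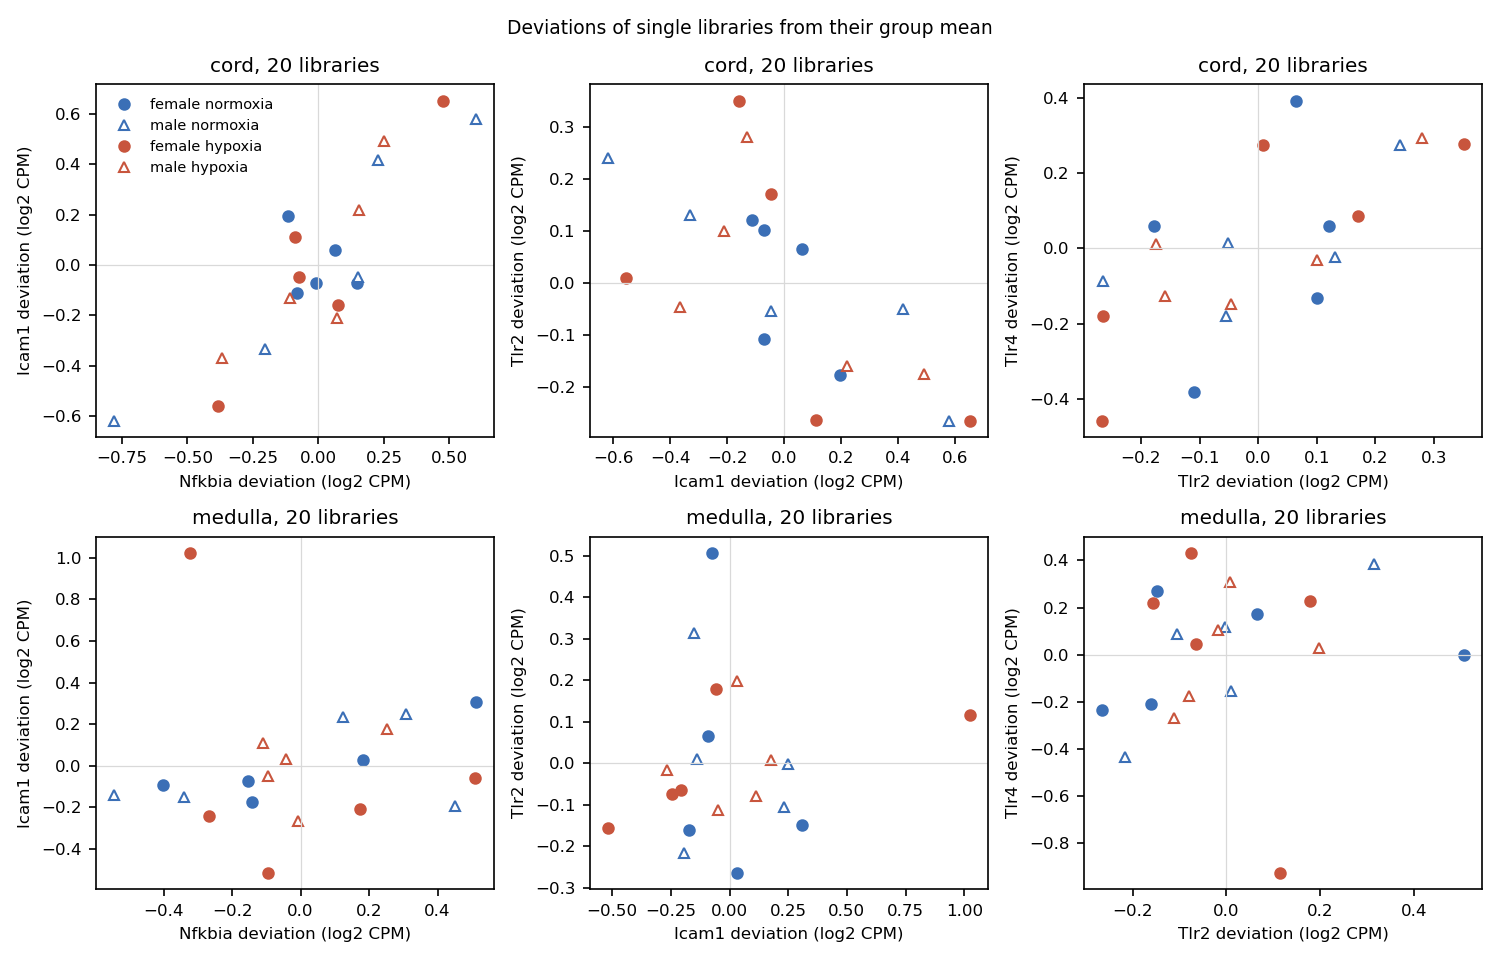
Deviation of each library from its group mean in log2 CPM for Nfkbia with Icam1, Icam1 with Tlr2 and Tlr2 with Tlr4, in the cord (top) and the medulla (bottom); filled circles are females, open triangles males, blue normoxia and red hypoxia. Cord points of Nfkbia and Icam1 lie along a rising line (r = 0.87), and in the medulla 1 female hypoxia library stands apart in Icam1 and in Tlr4.

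A member's deviation in the medulla was also set against that in the cord of the same animal. Over 20 animals 0 of 8 members passed after adjustment over the 8. Cd14 came nearest (r = 0.58, rho = 0.56, permutation p = 0.00889 and 0.018, adjusted 0.0711 and 0.144, r = 0.59 without the 2 most extreme animals). For Nfkbia r was 0.17 and for Icam1 -0.07 (rho = 0.16 and -0.19, permutation p = 0.608 and 0.793 for r and 0.535 and 0.456 for rho, adjusted 0.793 for both r and 0.634 for both rho, r = 0.21 and -0.25 without 2).

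Among 9376 genes outside the list with an average log2 CPM of at least 3, the highest likeness to any member over the 40 libraries was that of ENSRNOG00000020938 to Nfkbia (Pearson r = 0.96). It averaged 111 to 137 CPM in the medulla groups and 385 to 481 CPM in the cord groups. After it came ENSRNOG00000014061 to Icam1 (r = 0.89), at 12.8 to 17.99 CPM in the medulla and 30.5 to 41.3 CPM in the cord. Both values describe all 40 libraries, which share the division by region, and carry no test.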

How the data were processed

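RNA of 40 microglial libraries was analysed from 1 table of raw read counts per Ensembl gene, deposited by the authors as whole numbers. The submitters' processing notes name build rn6 and the tools TopHat2 2.1, HTSeq and edgeR, without their roles. Annotation release, strand setting and filters were not given in the sources used here. Overlapping genes may therefore share reads. Symbols of the 8 members come with the definition of the gene list. The reference gene list paired 0 of its 47357 rows with an Ensembl ID, so the lists of other pathway genes and of cell type markers were not analysed here. Members and lists were chosen with earlier results of these data known.

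Differences over all genes were tested with the quasi-likelihood test of edgeR 4.0.16 (R 4.3.3; TMM factors; filterByExpr, minimum count 10). A gene was called where its p, adjusted over all genes tested by the method of Benjamini and Hochberg, lay under 0.05. Exposure, sex and their interaction used the 20 libraries of a region (13593 genes in the cord, 14151 in the medulla). Region and its interaction with exposure used all 40 (14832 genes). SEs are those implied by the F statistic. DESeq2 1.42.0, limma 3.58.1 with voom, RLE factors, no filter, smaller fits, blocks and left-out libraries were alternatives, and unscaled CPM, differences per animal and group means without female hypoxia medulla replicate 3 were added after seeing the data. Correlations used log2 CPM (prior count 2), with 100000 two-sided permutations within groups. Only the edgeR fit was run on simulated data, for exposure in the female cord and region in female normoxia.

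All members were named, and of other genes only the 2 most like any member. The series design and the label codes give which medulla and cord library belong to 1 animal. Their deviations over all genes correlated at 0.063 to 0.424, positively in 20 of 20 pairs. Fits without the block are the main ones, so their p values for region treat the cord and medulla libraries of an animal as independent. Counting error was not computed, and library totals ran from 6061346 to 24039411 reads.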

Additional observations from a re-analysis of the deposited data

Results flagged for a closer look

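Single libraries stood apart from the other 4 of their group in 5 of 64 combinations of gene and group, where chance gives about 1 in 20. Female hypoxia medulla replicate 3 held 402 CPM of Icam1, against 138 to 189.8 CPM in the other 4, and 178 CPM of Myd88, against 56.3 to 88.9 CPM. Rela stood at 85.2 CPM in female normoxia medulla replicate 4, below 113 to 123 CPM in the rest. Nfkbia stood at 196 CPM in male hypoxia medulla replicate 1, above 152 to 163 CPM. Myd88 stood at 81.9 CPM in male normoxia cord replicate 1, above 53.4 to 61.3 CPM.

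The response of Tlr2 to gestational hypoxia differed between the cord and the medulla of females in a test of the difference itself. The difference was 0.68 on the log2 scale (edgeR adjusted p = 0.00992, and 0.00533 to 0.068 over the alternatives). In this test 20.8% of all genes and 1 of 8 members were called. With only the female libraries setting the spread Tlr2 was not called (adjusted p = 0.068). From group means of CPM the value was 0.68 with TMM factors and 0.52 without.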

How the results depend on the processing

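Over 16 comparisons, the number of members called stayed within 1.5 times the reported number in 281 of 300 alternative fits. Most of these fits belonged to comparisons with 0 members called, where staying at 0 counts as the same. For sex in the hypoxia cord the call of 1 member was kept in 6 of 16 fits and lost in 10. With only the compared libraries setting the spread, 1 member was called for exposure in the female cord (Nfkbia), 0 for sex in the hypoxia cord and 0 for region by exposure in females. With limma voom, 2 were called between regions in hypoxia females and 4 in normoxia males, Tlr2 and Myd88 being added as lower in the cord. In normoxia males the genes called over the whole table rose from 972 to 2008 with limma voom. The share over all genes was not set beside every alternative count of members, here or with libraries left out. These counts of members are therefore not read as a trait of the pathway. Leaving out single libraries gave 0 to 1 for exposure in the female cord, 0 to 1 for sex in the hypoxia cord, 1 to 3 for region in hypoxia females (3 without medulla replicate 3) and 1 to 2 in normoxia males. Myd88 between regions of hypoxia females, at -0.04, turned to 0.33 with limma voom, to 0.11 with each animal as a block and to between -0.21 and 0.35 with libraries left out (0.35, adjusted p = 0.0414, without medulla replicate 3). Of 28 pairs, where 0 passed over 40 libraries, 1 passed with RLE factors, 5 by Spearman's rho and 6 without female hypoxia medulla replicate 3. For Nfkb1 and Myd88 r was -0.27, turning to 0.52 without that library and to 0.26 by rho. With a block the calls were the same: 3, 1, 2 and 2 members between regions with each animal as a block. The replicate number as a block within a region also changed no member's call. Same-numbered libraries across sex and exposure correlated at -0.112 to 0.352 in the cord and -0.453 to 0.715 in the medulla. The regions of an animal correlated at 0.063 to 0.424, within which many of these values can fall. The ranges therefore cannot decide whether equal numbers mark litters, which the labels do not say. The main fits do not pair libraries by that number.

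Counts of calls over all genes also moved. Between regions, 870 genes in female normoxia became 2659 with limma voom, 972 in male normoxia became 2008 with limma voom, and 1151 in male hypoxia became 703 with the compared libraries alone. The 3886 of female hypoxia became 132, and the 3078 of region by exposure in females 1083, with the compared libraries alone. The 892 of sex in the normoxia cord became 1540 with DESeq2 and 592 with no filter. Of sex in the medulla, 10 became 26 with limma voom under normoxia and 11 became 38 with DESeq2 under hypoxia. The 0 of exposure became 48 in the female medulla and 1 in the male cord with DESeq2, and the 0 of sex by exposure in the medulla became 2. With single libraries left out the counts ran from 136 to 1227 for sex in the normoxia cord, 1477 to 3139 for sex in the hypoxia cord, and for region 291 to 1812 in female normoxia, 291 to 1937 in male normoxia and 386 to 1849 in male hypoxia. Unscaled CPM kept 63 of 64 group means within 1 SD, the other being Myd88 in the female hypoxia cord.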
